A study of Mus musculus with 4 samples.

Results

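The 10 genes Trp53, Trp63, Mdm2, Mdm4, Bcl2l10, Bcl2l1, Mcl1, Bax, Bak1 and Bid were taken by their symbols from 23309 gene symbols in the deposited tables. They are p53 relatives, their MDM regulators and BCL2 relatives, grouped here under the control of oocyte survival. They were chosen by gene name for their roles, with earlier results of these data known. All 10 were found, each on 1 row. Of these, 9 had a mean of at least 1 FPKM (fragments scaled to transcript length and library size) over the 4 libraries, and 1, Bak1, was listed at 0 in all of them.

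The series holds RNA from mouse oocytes of the ICR strain at MII (the mature egg, held in its second meiotic metaphase) and at GV (germinal vesicle, fully grown and arrested before meiosis resumes). The 4 groups were MII oocytes labelled Erk-/-, wild-type MII oocytes, Erk-/- GV oocytes and wild-type GV oocytes, with 1 library of 60 pooled cells for each. Females were 21 to 23 days old, and the protocols name the hormones PMSG and hCG without saying which cells received them. The labels give neither the driver of the deletion nor the exons removed, and the treatment text names Btg4-/- females where the genotype labels say Erk-/-. The title of the series asks how the loss of maternal mRNA depends on the kinase ERK. No group had a replicate, so each difference below is between single libraries and none could be tested.

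Mapk3, which encodes ERK1, had 34.3 FPKM in the MII library labelled Erk-/- against 25.7 in wild-type MII, and 52.3 in Erk-/- GV against 333 in wild-type GV. The Mapk3 level thus went with the genotype label at GV but not at MII, so the library is called the one labelled Erk-/- MII. All 14 oocyte markers (among them Gdf9, Zp3 and Mos) were above 0 in each library. Of 15 granulosa and cumulus markers, 8 were at 0 in all libraries, including Fshr, Foxl2, Inhba and Lhcgr. Cyp19a1 (aromatase) was detected, with 10.8 FPKM in the library labelled Erk-/- MII, 21.8 in wild-type MII and 15.5 in wild-type GV, and was listed at 0 in Erk-/- GV. Nr5a2 had 1.20 and 2.24 FPKM in the labelled Erk-/- and wild-type MII libraries, against 17.0 and 6.84 at GV, and Inha had 11.3 FPKM in Erk-/- GV, 3.80 in wild-type GV and at most 0.0698 at MII. The summed level of the list was 15.3 FPKM in the library labelled Erk-/- MII, 24.9 in wild-type MII, 29.5 in Erk-/- GV and 28.9 in wild-type GV. Of 12 markers of other ovarian and blood cells, 9 were at 0 in all libraries, and most of their summed 25.6 to 71.2 FPKM was Pecam1. The part of these cells in the results was not tested. FPKM is relative to the library's own total, so a change in mRNA per oocyte and a change in the rest of the transcriptome cannot be told apart.

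TRP53 (p53) and TRP63 (p63) are related transcription factors that answer DNA damage, and p63 is the family member that guards resting oocytes and triggers their death after chromosome breaks. MDM2 is the ubiquitin ligase that marks p53 for destruction, and MDM4 is its partner that blocks p53 activity. The BCL2 family then decides at the mitochondrion. BCL2L1 (BCL-XL) and MCL1 belong to the survival side, and BCL2L10 is grouped with them here. BAX and BAK1 open the outer membrane, and BID is a BH3-only messenger that activates them. Transcription is largely shut down in the fully grown oocyte, and a stored message can be kept, lost or given a longer poly(A) tail during maturation. That tail extension is directed by the cytoplasmic polyadenylation element, a U-rich run near the end of the mRNA that CPEB proteins bind.

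The 3′ ends of the mRNAs were read from the GENCODE vM21 transcripts (build GRCm38) to see which members carry this element, searched as TTTTAT or TTTTAAT on the sense strand. Within the last 150 bases it was found in 3 of 10 members, Bcl2l10, Mdm4 and Trp53, against 25.4% of the 9044 genes tested that had an annotated 3′ untranslated region. The 30-base stretches of all 3 are shown, whatever their ratio, and capitals mark the element. Bcl2l10 and Trp53 are the members of highest MII to GV ratio in both genotypes, and Mdm4 is not.
Bcl2l10, chr9:75351585-75351614, plus strand: atacatTTTTAATaacttcaaattcttaat
Trp53, chr11:69591820-69591849, plus strand: acccctTTTTATatatcaatttcctatttt
Mdm4, chr1:132986236-132986265, minus strand: atgcggTTTTATtgtgtttttgtgtgatta
The element began 42 bases before the annotated end in Bcl2l10, 47 in Trp53 and 40 in Mdm4. In Mdm2 it occurred 3 times and in Trp63 8 times in the whole 3′ untranslated region but not in the last 150 bases, and in Bax it did not occur. A match is a description of these letters at an annotated end, which may not be the end used in oocytes.

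Trp53 (mm9 chromosome 11, 69393861 to 69405375) was nearly absent at GV and well detected at MII. It had 48.5 FPKM in the library labelled Erk-/- MII (authors' bounds 44.8 to 52.3), 55.8 in wild-type MII (51.8 to 59.9), 0.0729 in Erk-/- GV (0 to 0.352) and 1.36 in wild-type GV (0.795 to 1.93). Both MII libraries were above both GV libraries, with no overlap of the bounds. The log2 ratio of MII over GV, taken on FPKM + 1, was 5.53 in the libraries labelled Erk-/- and 4.59 in wild type, above 99.9% and 99.5% of the 9990 genes that passed the same filter. In wild type the ratio of the FPKM values themselves was 41.0. No fold is given for the labelled Erk-/- pair, because the lower bound of its GV value was 0. Between the MII libraries the bounds of Trp53 overlapped.

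Trp63 (chromosome 16, 25683851 to 25892174) had 12.5 FPKM in the library labelled Erk-/- MII (11.1 to 14.0), 20.4 in wild-type MII (18.5 to 22.4), 3.87 in Erk-/- GV (3.11 to 4.65) and 13.5 in wild-type GV (12.3 to 14.8). Erk-/- GV stood below the other 3 libraries. The ratio of MII over GV was 3.24 in the libraries labelled Erk-/- and 1.51 in wild type. Gene-level FPKM sums the transcripts of both start-site groups listed for Trp63, so the long isoform that acts in oocytes cannot be read separately. The order of the p53 relatives turned between stages. At MII Trp53 was above Trp63, by 3.87-fold in the library labelled Erk-/- MII and 2.74-fold in wild-type MII, whereas in wild-type GV Trp63 was 9.94-fold above Trp53.

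Mdm2 (chromosome 10, 117125961 to 117147772) had 94.1 FPKM in the library labelled Erk-/- MII, 131 in wild-type MII, 43.7 in Erk-/- GV and 26.2 in wild-type GV. Both MII libraries were above both GV libraries. MII exceeded GV by 2.15-fold in the libraries labelled Erk-/- and by 4.98-fold in wild type. Mdm4 (chromosome 1, 134886422 to 134921925) was the second most abundant member in each library. Its levels were 206 FPKM in the library labelled Erk-/- MII, 331 in wild-type MII, 300 in Erk-/- GV and 222 in wild-type GV. At MII against GV it was 1.45-fold lower in the libraries labelled Erk-/- and 1.49-fold higher in wild type. Mdm4 exceeded Mdm2 by 2.19-fold and 2.53-fold in the labelled Erk-/- and wild-type MII libraries, and by 6.85-fold and 8.46-fold in the Erk-/- and wild-type GV libraries.

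Bcl2l10 (chromosome 9, 75195565 to 75199447), grouped here with the survival side of the family, was by far the most abundant member. It had 5103 FPKM in the library labelled Erk-/- MII, 7221 in wild-type MII, 939 in Erk-/- GV and 826 in wild-type GV. Both MII libraries were above both GV libraries, and the value ranked 5 and 2 among all symbols in the labelled Erk-/- and wild-type MII libraries, and 34 and 48 in the Erk-/- and wild-type GV libraries. MII exceeded GV by 5.44-fold in the libraries labelled Erk-/- and by 8.74-fold in wild type. The deposited values of Bcl2l10 and Mdm4 lay above their own upper bounds in all libraries, so no bounds are given for them.

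The other survival genes were lower at MII, as were many genes. In wild type 49.6% of all genes were at least 2-fold lower at MII on FPKM + 1. There the log2 ratios of Bcl2l1 and Mcl1 lay above those of 31.1% and 21.8% of genes. For the labelled Erk-/- pair the shares were 37.3% and 43.8%, and neither gene was 2-fold lower (-0.91 and -0.58). The shares for Bcl2l10 were 97.2% (wild type) and 94.2% (labelled Erk-/-). Bcl2l1 (chromosome 2, 152606404 to 152657418) had 44.9 FPKM in the library labelled Erk-/- MII (39.7 to 46.5), 21.6 in wild-type MII (18.6 to 23.1), 85.3 in Erk-/- GV (75.7 to 85.8) and 109 in wild-type GV. Both MII libraries were below both GV libraries, by 1.90-fold in the libraries labelled Erk-/- and 5.05-fold in wild type. Mcl1 (chromosome 3, 95462643 to 95467101) was low throughout, at 1.88 FPKM in the library labelled Erk-/- MII (1.42 to 2.33), 0.160 in wild-type MII (0.0505 to 0.278), 3.30 in Erk-/- GV (2.60 to 3.97) and 7.88 in wild-type GV (6.78 to 8.89). Its MII values were likewise below its GV values, by 1.76-fold in the libraries labelled Erk-/- and 49.4-fold in wild type. The wild-type fold rests on an MII value near 0. On FPKM + 1 its log2 ratio was -2.94, and -1.32 with 5 added in place of 1. Bcl2l10 was thus 114-fold above Bcl2l1 in the library labelled Erk-/- MII and 335-fold in wild-type MII, against 11.0-fold in Erk-/- GV and 7.58-fold in wild-type GV.

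Among the genes that carry out the death step, Bax went with the genotype label and not with the stage. Bax (chromosome 7, 52717065 to 52722268) had 30.4 FPKM in the library labelled Erk-/- MII (21.8 to 31.3), 4.81 in wild-type MII (2.84 to 6.39), 26.2 in Erk-/- GV (18.2 to 26.3) and 4.05 in wild-type GV (2.30 to 5.74). Both libraries labelled Erk-/- were above both wild-type libraries with no overlap of the bounds, by 6.32-fold at MII and 6.47-fold at GV. Within each genotype the bounds of the stages overlapped. Bak1 (chromosome 17, 27156757 to 27165571) was listed at 0 in all 4 libraries, and its locus lies under another gene, Ggnbp1, over 8815 bases. Bid (chromosome 6, 120843137 to 120866838) had 5.16 FPKM in Erk-/- GV (3.82 to 6.40) and was listed at 0 in the other 3 libraries. A listed 0 can be a failed estimate, so no fold is given for Bid.

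**Figure D1:**
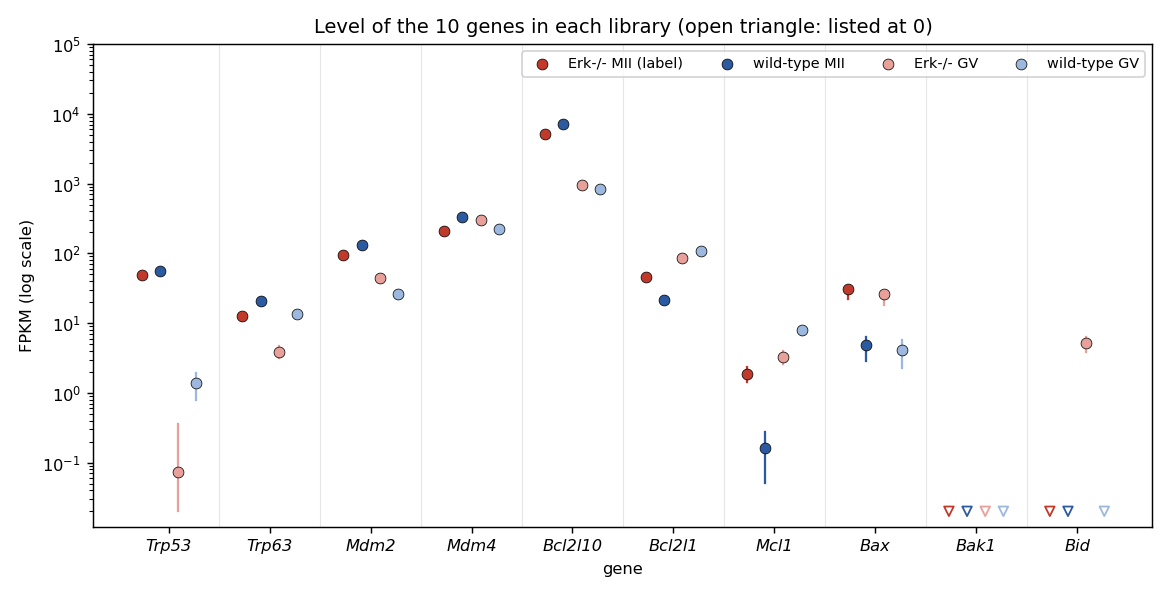
FPKM (log scale) of the 10 genes in the libraries, as 1 point per library with the authors' bounds as bars where the value lay within them (a lower bound of 0 is drawn to the open-triangle level) and open triangles for values listed at 0. Trp53, Mdm2 and Bcl2l10 are higher in both MII libraries, Bcl2l1 and Mcl1 lower, and Bax is at 30.4 and 26.2 FPKM in the libraries labelled Erk-/- against 4.81 and 4.05 in wild type.

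Within a library the order of levels was Bcl2l10, Mdm4, Mdm2 and Trp53 at the top in both MII libraries, and Bcl2l10, Mdm4, Bcl2l1 and Mdm2 in both GV libraries. Neighbours whose bounds overlapped were Trp53 and Bcl2l1 in the library labelled Erk-/- MII and Bcl2l1 and Trp63 in wild-type MII. In Erk-/- GV they were Bid and Trp63, and Trp63 and Mcl1. Together the 10 genes made up 1.34% of summed FPKM in the library labelled Erk-/- MII and 1.94% in wild-type MII, against 0.334% in Erk-/- GV and 0.267% in wild-type GV, and Bcl2l10 was 92.1%, 92.8%, 66.8% and 68.3% of these sums in that order.

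Counted by a rule of size, at least 2-fold on FPKM + 1, the libraries labelled Erk-/- had 4 of the 9 members higher at MII (Trp53, Trp63, Mdm2 and Bcl2l10), where 22.9% of all genes were higher. They had 1 lower (Bid, which passed the filter through Erk-/- GV alone), where 35.6% of all genes were lower. In wild type 3 of 9 were higher at MII (Trp53, Mdm2 and Bcl2l10), against 20.6% of all genes. The 2 lower were Bcl2l1 and Mcl1, against 49.6% of all genes. The median log2 ratio of the members was 0.21 in the libraries labelled Erk-/-, where that of all genes was -0.26, and 0.56 in wild type, where that of all genes was -0.97. Scaling the libraries by the median of ratios shifted the all-gene median by 0.18 in the libraries labelled Erk-/- and by 0.67 in wild type. Under it the wild-type members split into 5 higher and 2 lower, with Trp63 (log2 1.34) and Mdm4 (1.40) now past 2-fold, beside 2957 higher and 4036 lower over all genes (2054 and 4952 as deposited).

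At MII, Bcl2l1, Mcl1 and Bax were at least 2-fold higher in the library labelled Erk-/- than in wild type, which is 3 of 9 where 31.4% of all genes were higher. None of the 9 was 2-fold lower, where 7.43% of all genes were. Bcl2l1 was 2.08-fold, Mcl1 11.8-fold and Bax 6.32-fold higher. Both Mcl1 values were under 2 FPKM. Trp63, Mdm4, Bcl2l10 and Mdm2 were lower by 1.63-fold, 1.60-fold, 1.41-fold and 1.39-fold, and the median log2 ratio of the 9 was -0.20 against 0.31 for all genes. Median-of-ratios scaling shifted the all-gene median by -0.31, and it gave 2 members higher and 3 lower at MII. Trp63 (-1.17), Mdm4 (-1.21) and Bcl2l10 (-1.03) then passed 2-fold and Bcl2l1 (0.51) no longer did, beside 2462 higher and 1704 lower over all genes (3139 and 742 as deposited).

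At GV, Bax was higher in Erk-/- oocytes and Bid was listed only there, making 2 of 9 higher where 18.4% of all genes were. Lower in Erk-/- GV were 3 of 9, Trp53, Trp63 (3.50-fold) and Mcl1 (2.39-fold), where 22.9% of all genes were. With median-of-ratios scaling only Trp63 remained past 2-fold among these 3, and Trp53 stood at -0.94 and Mcl1 at -0.93. Each comparison shares libraries with others, so the values are set side by side and not added up. For the difference of the maturation ratios (libraries labelled Erk-/- minus wild type), 2 of 9 members were at least 2-fold positive, Bcl2l1 (1.37) and Mcl1 (2.36), where 41.2% of all genes were. Of the 9, 3 were negative, Mdm2 (-1.19), Mdm4 (-1.11) and Bid, where 18.8% of all genes were. Under scaling, 1 was positive (Mcl1) and 4 negative, with Bcl2l1 at 0.77 and Bcl2l10 at -1.31, beside 3263 positive and 2653 negative over all genes (4120 and 1881 as deposited).

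**Figure D2:**
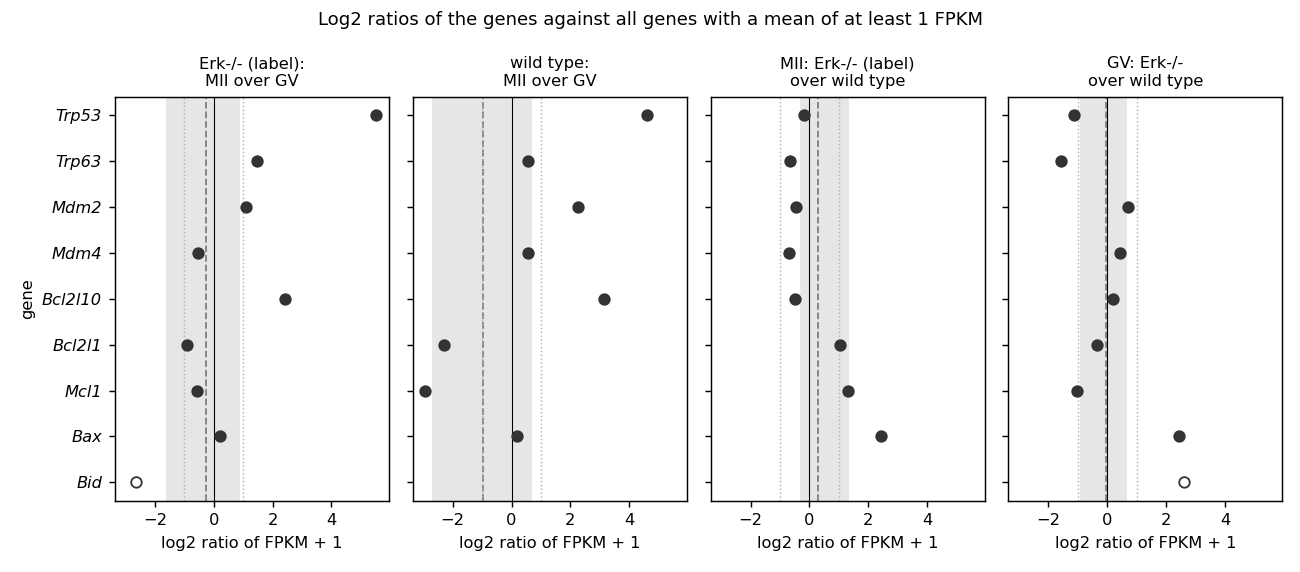
Log2 ratio of FPKM + 1 of 9 members in the 4 comparisons, with open circles where a library is listed at 0, dotted lines at 2-fold, and the interquartile range and the median of all 9990 genes as grey band and dashed line. Trp53, Bcl2l10 and Mdm2 lie right of the band in both maturation panels, and Trp63 in that of the libraries labelled Erk-/-. Bax lies right of it in both genotype panels.

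The maturation ratio was also set against the polyadenylation element. In the libraries labelled Erk-/-, the median log2 ratio of MII over GV was 0.32 in the 2298 genes with the element in the last 150 bases and -0.47 in the 6746 without. In wild type these medians were 0.14 and -1.41. Trp53 and Bcl2l10 lay far above the median of genes with the element in both genotypes, whereas Mdm4, which also has it, was at -0.54 in the libraries labelled Erk-/- and 0.57 in wild type. Mdm2, without it in that window, was at 1.09 and 2.27. The element was in 3 of 10 members, near its share of 25.4% over the 9044 genes. A link between the element and the ratios of the members was not tested. Whether the libraries were made from poly(A)-selected mRNA is not stated in the labels, so more transcripts and longer tails cannot be told apart in these values.

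**Figure D3:**
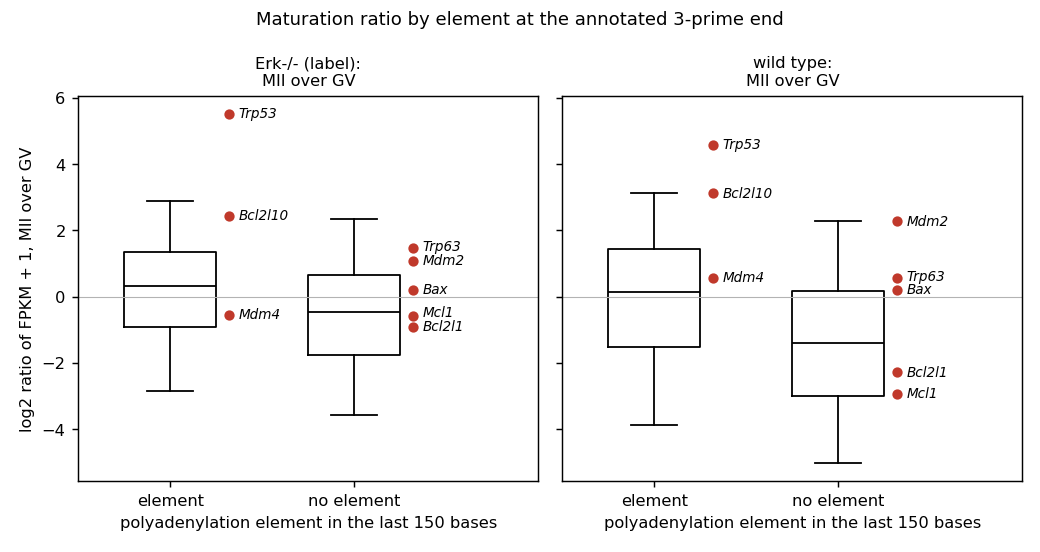
Log2 ratio of FPKM + 1, MII over GV, in the libraries labelled Erk-/- (left) and in wild type (right), for genes with and without the element in the last 150 bases of the annotated mRNA. Boxes show the median and interquartile range, whiskers the 5th and 95th percentiles, and red points the 8 members above 0 in all libraries; Trp53 is at 5.53 in the libraries labelled Erk-/- and 4.59 in wild type.

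For the 7 members that reached 10 FPKM in a library, genes of like pattern were found as the nearest of 5287 other genes by distance between centred log2 values over the 4 libraries. Nearest to Bcl2l10 were Ipo8 (distance 0.09 log2 units), Cnot7 (0.18) and AU022751 (0.18), and Cnot7, a deadenylase gene, had 286 FPKM in the library labelled Erk-/- MII, 459 in wild-type MII, 59.4 in Erk-/- GV and 53.4 in wild-type GV. Nearest to Mdm2 were Picalm (0.03), Mllt10 (0.07) and Mad2l2 (0.09). Nearest to Trp63 were Etfa (0.07), Suox (0.10) and Arhgef39 (0.12), to Mdm4 Atp5g3 (0.12), Tlk2 (0.12) and Ssbp2 (0.13), and to Bcl2l1 Atg5 (0.09), Ctcf (0.11) and A430005L14Rik (0.13). For Trp53 the nearest were Gtf2a1 (0.14), Myef2 (0.70) and Adam9 (0.76), and for Bax 2410006H16Rik (0.45), Ndufa7 (0.48) and Klhdc1 (0.68). Apart from Gtf2a1, these distances were larger than those given for the other members.

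Of 19 other BCL2 relatives and BH3-only genes, 8 were at 0 in all libraries, among them Bcl2, Bcl2l2 and Bok, and 7 passed the filter. Bbc3 (PUMA) and Pmaip1 (NOXA), BH3-only genes through which p53 and p63 kill cells and which are named here after their values were seen, did not pass. Bbc3 had 2.15 FPKM in the library labelled Erk-/- MII and Pmaip1 had 1.42 there and 0.995 in wild-type MII, and both were listed at 0 in the GV libraries, with Bbc3 at 0 in wild-type MII too. At MII against GV, 22.9% of all genes were higher and 35.6% lower in the libraries labelled Erk-/-. There 4 of the 7 were higher and 1 lower (median log2 1.16). In wild type 3 were higher and 2 lower (median 0.44), beside 20.6% and 49.6% of all genes. Of the 5 above 0 in all libraries, 2 were higher and 1 lower in the libraries labelled Erk-/- (median 0.64), and likewise in wild type (median 0.44). The medians of all genes above 0 in all libraries were -0.23 and -0.74. Bcl2l11 (BIM), which binds all survival members of the family, had 11.0 FPKM in the library labelled Erk-/- MII and 13.2 in wild-type MII. It was listed at 0 in Erk-/- GV and had 3.29 FPKM in wild-type GV. Bnip3l, a mitophagy receptor, was the main exception at MII, with 19.4 FPKM in the library labelled Erk-/- against 0.805 in wild type, and 54.1 in Erk-/- GV against 74.4 in wild-type GV. Its relative Bnip3 was lower in the libraries labelled Erk-/- at both stages, at 16.4 FPKM against 41.0 in wild-type MII and 4.20 against 14.6 in wild-type GV. Becn1, the autophagy gene, had 48.2 to 67.1 FPKM throughout. Between genotypes, 1 was higher and 1 lower at MII (median -0.24), beside 31.4% and 7.43% of all genes. At GV none was higher and 4 were lower (median -1.29), beside 18.4% and 22.9%. Of these 4, Bcl2l11 and Bcl2l12 were listed at 0 in Erk-/- GV. The 5 above 0 in all libraries gave 2 lower at GV and a median of -0.45, where that of all such genes was -0.06. Bcl2l12 had 2.80 FPKM in the library labelled Erk-/- MII, 2.34 in wild-type MII and 11.4 in wild-type GV.

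Caspase genes were low, and the inhibitor genes Birc3 and Birc5 were the most abundant of their list. Birc3, a ubiquitin ligase of the inhibitor-of-apoptosis family, had 447 FPKM in the library labelled Erk-/- MII, 682 in wild-type MII, 152 in Erk-/- GV and 95.1 in wild-type GV, higher at MII in both genotypes. Birc5 (survivin), which also serves in the chromosomal passenger complex of dividing cells, had 570 FPKM in the library labelled Erk-/- MII, 197 in wild-type MII, 695 in Erk-/- GV and 594 in wild-type GV. Wild-type MII was lowest. Htra2, a mitochondrial protease, had 44.4 and 48.7 FPKM in the labelled Erk-/- and wild-type MII libraries, against 20.1 and 14.0 in the GV libraries in the same genotype order. Casp9, the caspase that the apoptosome activates, had 3.27 FPKM in the library labelled Erk-/- MII and 10.8 in wild-type MII. It was listed at 0 in Erk-/- GV and had 1.83 FPKM in wild-type GV. Aifm1 had 31.1 FPKM in Erk-/- GV and at most 7.68 in the other libraries. Endog and Dffa, which encode a mitochondrial nuclease and the inhibitor of the caspase-activated DNase, were listed at 0 in wild-type MII and in Erk-/- GV. Endog had 4.09 FPKM in the library labelled Erk-/- MII and 17.9 in wild-type GV, and Dffa had 7.44 and 17.7 in these libraries. Of 23 genes 18 passed the filter. At MII against GV, 10 were higher and 3 lower in the libraries labelled Erk-/- (median 1.10), beside 22.9% and 35.6% of all genes. In wild type 6 were higher and 9 lower, beside 20.6% and 49.6%, with a median of -1.01 where that of all genes was -0.97. At MII, 4 were higher and 2 lower in the library labelled Erk-/- (median -0.04), beside 31.4% and 7.43% of all genes. At GV 2 were higher and 9 lower (median -1.02), beside 18.4% and 22.9%. Median-of-ratios scaling turned both balances that rest on wild-type MII. It gave 3 higher and 5 lower for the genotype at MII (median -0.42), beside 2462 and 1704 over all genes (median 0.00). In wild-type maturation it gave 7 higher and 5 lower (median -0.41), beside 2957 and 4036 over all genes (median -0.30). The 6 that averaged 10 FPKM or more gave a median of -0.04 in labelled Erk-/- maturation, 0.32 for the genotype at MII and 0.36 at GV. Without genes listed at 0 in any library, 9 remained and the median in the libraries labelled Erk-/- was 0.00 for maturation and -0.66 for the genotype at GV. Over all genes left by that rule the medians were -0.23 and -0.06.

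Known p53 targets were found on both sides at MII against GV. Cdkn1a, the classical p53 target that halts the cell cycle, named after its value was seen, had at most 0.0671 FPKM in any library. Of 27 targets 25 were found under these symbols and 18 passed the filter. At MII against GV, 5 were higher and 4 lower in the libraries labelled Erk-/- (median 0.15), beside 22.9% and 35.6% of all genes. In wild type 7 were higher and 8 lower (median -0.75, where that of all genes was -0.97), beside 20.6% and 49.6%. Scaling made this 7 and 5 (median -0.06), beside 2957 higher and 4036 lower over all genes (median -0.30). The 11 targets above 0 in all libraries gave 2 higher and 3 lower in the libraries labelled Erk-/- (median 0.10), and 5 and 4 in wild type (median -0.63). The medians of all genes above 0 in all libraries were -0.23 and -0.74. Rps27l, the most abundant target, had 264 FPKM in the library labelled Erk-/- MII, 224 in wild-type MII, 431 in Erk-/- GV and 347 in wild-type GV. Ddb2, which recognises ultraviolet lesions in DNA, had 36.3 and 59.3 FPKM in the labelled Erk-/- and wild-type MII libraries, against 36.3 and 25.01 at GV. Rrm2b, which supplies nucleotides for DNA repair, was higher at MII in both genotypes, with 124 FPKM in the library labelled Erk-/- MII and 172 in wild-type MII against 18.8 in Erk-/- GV and 33.1 in wild-type GV. Trp53inp1, a p53-induced regulator of autophagy and death, had 29.0 and 33.7 FPKM in the labelled Erk-/- and wild-type MII libraries, against 14.6 in Erk-/- GV and 1.79 in wild-type GV. Ppm1d (WIP1), the phosphatase that turns p53 off, had 8.32 FPKM in the library labelled Erk-/- MII, 20.1 in wild-type MII, 5.31 in Erk-/- GV and 1.20 in wild-type GV. Aen, a p53-induced nuclease gene, went the other way, with 8.10 and 2.27 FPKM in the labelled Erk-/- and wild-type MII libraries against 20.4 and 38.0 at GV. Btg2, an antiproliferative gene, was likewise below its GV levels, with 3.07 and 0.0303 FPKM in the labelled Erk-/- and wild-type MII libraries against 12.7 and 6.61 at GV. Sfn (14-3-3 sigma) was highest in wild-type GV, with 0.626 FPKM in the library labelled Erk-/- MII, 2.14 in wild-type MII, 2.43 in Erk-/- GV and 10.1 in wild-type GV. Xpc, which finds DNA lesions, had 18.6 FPKM in the library labelled Erk-/- MII against 3.06 in wild-type MII, and 10.6 in Erk-/- GV against 22.9 in wild-type GV. Between genotypes, 6 targets were higher and 3 lower at MII, beside 31.4% and 7.43% of all genes. Their median of 0.08 turned to -0.37 with median-of-ratios scaling, which moved the median of all genes from 0.31 to 0.00. At GV 3 targets were higher and 7 lower (median -0.39), beside 18.4% and 22.9%. Of the 11 above 0 in all libraries, 3 were higher and 1 lower at MII (median -0.21), and 2 higher and 3 lower at GV, where the median turned to 0.31. The medians of all such genes were 0.27 at MII and -0.06 at GV.

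Of 24 regulators of p53 and p63, 22 passed the filter. At MII against GV, 6 were higher and 7 lower in the libraries labelled Erk-/-, beside 22.9% and 35.6% of all genes. The median of the regulators was -0.13, and 0.00 when scaled, where that of all genes was -0.26 and -0.08. In wild type 2 were higher and 13 lower (median -1.30, where that of all genes was -0.97), beside 20.6% and 49.6%. Scaling made this 4 and 7 (median -0.61), beside 2957 higher and 4036 lower over all genes (median -0.30). Csnk1e, which encodes a casein kinase 1 isoform, a kinase family that acts on p63 in oocytes, was among the most abundant, with 99.5 FPKM in the library labelled Erk-/- MII against 216 in wild-type MII, and 134 in Erk-/- GV against 194 in wild-type GV. Rpl5 and Rpl11, ribosomal proteins that bind and restrain MDM2, had 35.3 and 366 FPKM in the library labelled Erk-/- MII and 4.39 and 97.4 in wild-type MII. At GV they had 195 and 382 FPKM in Erk-/- oocytes and 217 and 305 in wild-type oocytes. Reads of ribosomal protein genes may be shared with processed pseudogenes. Trim24, an E3 ligase for p53, had 6.08 and 2.55 FPKM in the labelled Erk-/- and wild-type MII libraries, against 56.6 and 47.2 at GV. Ppp1r13b (ASPP1), a p53 cofactor, had 1.04 and 0.170 FPKM in the labelled Erk-/- and wild-type MII libraries, against 20.6 and 13.6 at GV. Both were lower at MII in both genotypes. Sirt1, the deacetylase that acts on p53, was low in Erk-/- GV alone, with 22.9 FPKM in the library labelled Erk-/- MII, 16.0 in wild-type MII, 1.80 in Erk-/- GV and 16.3 in wild-type GV. Trp73, the third member of the p53 family, had 3.01 FPKM in the library labelled Erk-/- MII, 4.66 in wild-type MII, 1.46 in Erk-/- GV and 15.7 in wild-type GV, and was highest in wild-type GV. Between genotypes, 5 were higher and 1 lower at MII (median 0.37, and -0.08 when scaled), beside 31.4% and 7.43% of all genes. The median of all genes was 0.31, and 0.00 when scaled. At GV none was higher and 5 were lower (median -0.41), beside 18.4% and 22.9%. Among the 14 regulators that averaged 10 FPKM or more, none was higher and 1 lower at GV, and the median turned to 0.29. That of all such genes was -0.06.

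**Figure D4:**
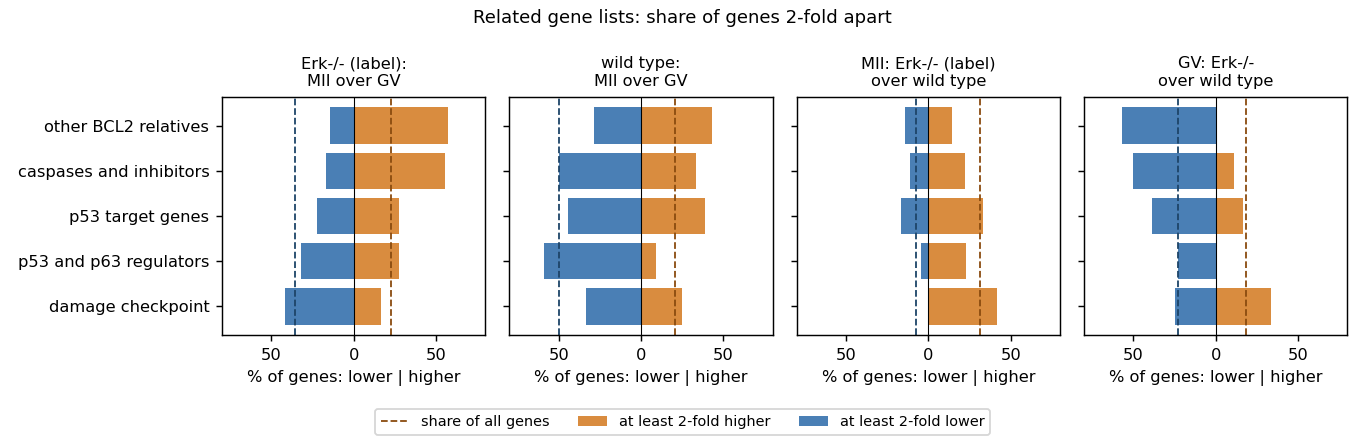
Percentage of genes of each related list that were at least 2-fold higher (right) or lower (left) in the 4 comparisons, among list members with a mean of at least 1 FPKM, with the share of all genes as dashed lines. Between 7 and 22 genes stand behind each bar, so 1 gene moves a bar visibly.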

How the data were processed

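Per the file headers, the authors deposited 1 table per library that lists FPKM for each gene between 2 confidence bounds. The submitters' processing notes name mouse build mm9, TopHat and CASAVA 1.8. How FPKM was computed, from which annotation, at what level of the bounds, with or without strand, and with which treatment of reads of several matches is not given in the sources used here. FPKM holds no counts, so depth is unknown, and the bounds' median half-width was 8.15% to 9.73% of values of at least 10 FPKM. The bounds cover uncertainty within a library only. Where a value lay above its own upper bound, as in 709 to 1018 rows per library, no bounds are quoted.

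Rows of 1 symbol were summed (260 symbols, 504 extra rows), and 1 was added to locus starts. Ratios were log2((FPKM + 1)/(FPKM + 1)), which understates low genes, over the 9990 genes that averaged 1 FPKM or more. At least 2-fold counted as higher or lower, a rule of size. Folds of single genes are ratios of FPKM. The members and lists were chosen with earlier results of these data known. Named were all members, Mapk3, the 3 genes of highest mean per pathway list (5 lists) and, per comparison, the 2 of largest ratio that reached 10 FPKM in either library. The 3 nearest patterns of each member of at least 10 FPKM were taken among genes that averaged 10 FPKM or more. For 3′ ends, 1 transcript per gene was used, by APPRIS rank and then length. Alternatives were pseudocounts of 0.1 and 5, a mean of at least 10 FPKM or no filter, median-of-ratios scaling over 7085 genes, scaling to a sum of 1000000, the highest row per symbol, and leaving out genes listed at 0. Python 3.11.15 with pandas 2.3.3 and numpy 2.4.6 was used.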

Additional observations from a re-analysis of the deposited data

Results flagged for a closer look

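Some genes stood on opposite sides in 2 groups under the same contrast with no library listed at 0. Members are given at any size and other named genes where they were at least 2-fold apart each way. With 1 library per group, none of these differences was tested. In the maturation contrast (labelled Erk-/- minus wild type, log2), Mdm4 had a difference of -1.11 (-0.54 in the libraries labelled Erk-/- and 0.57 in wild type). H2afx, the damage-marked histone gene, had -2.52 (-1.43 and 1.09).

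In the genotype contrast (labelled Erk-/- over wild type, MII minus GV), Mdm2 had a difference of -1.19 (-0.47 at MII and 0.72 at GV), Mdm4 -1.11 (-0.68 and 0.43) and Bcl2l10 -0.69 (-0.50 and 0.18). Bcl2l1 had 1.37 (1.03 at MII and -0.35 at GV) and Mcl1 2.36 (1.31 and -1.05). Outside the members, Xpc had 3.32 (2.27 at MII and -1.05 at GV), Mdc1 3.10 (2.08 and -1.02) and Ppm1d -2.70 (-1.18 and 1.52).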

How the results depend on the processing

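No paired analysis was possible because each group has 1 library. Among the 8 members above 0 in all libraries, the direction of each ratio in the 4 direct comparisons was the same under both pseudocounts and both scalings. Only Bax, in the difference of maturation ratios (0.00), changed sign (-0.48 under median-of-ratios scaling). Of 172 recomputed member ratios 100 moved by less than the half-width of the authors' bounds, taken also where a value lay above them, 72 by more, and none that was 2-fold apart reversed. Each member stood on 1 row, so the choice of row could change none of them.

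With a pseudocount of 0.1, 4 members were positive in the difference of maturation ratios (2 as reported), Trp53 and Trp63 joining. With a pseudocount of 5, Trp63 stood at 0.98 in labelled Erk-/- maturation, leaving 3 members higher there, and 1 member was higher at MII (Bax) and 1 lower at GV in the labelled genotype. Over all genes that pseudocount gave 1372 higher in labelled Erk-/- maturation, 1548 higher and 293 lower at MII, and 1109 higher and 1393 lower at GV. Median-of-ratios scaling gave 5 members higher in wild-type maturation, 3 lower at MII, 1 lower at GV and 1 positive in the difference, and 1704 genes lower at MII. Bcl2l1 at MII lay at the threshold (1.03), and fell just under it when libraries were scaled to a sum of 1000000.

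A mean of at least 10 FPKM left 7 members and 5294 genes. Of the members, 1 was then lower in wild-type maturation, 0 lower in labelled Erk-/- maturation, 1 higher at GV and 1 positive in the difference. Fewer genes were counted by construction: 1218 higher and 2553 lower in wild-type maturation, 1170 and 1854 in labelled Erk-/- maturation, 1754 and 281 at MII, 647 and 788 at GV, and 2070 positive and 742 negative differences. Leaving out genes listed at 0 left 8 members and 6967 genes. Without Bid, 0 members were lower in labelled Erk-/- maturation and 1 was higher at GV. Over all genes 3196 were lower in wild-type maturation, 1449 higher and 2220 lower in labelled Erk-/- maturation, 1980 and 428 at MII, 966 and 1183 at GV, with 2538 positive and 1101 negative differences. Values under about 2 FPKM (Mcl1 at MII, Trp53 at GV) carry wide bounds, and their ratios follow the pseudocount.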

Other observations

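Genes of the DNA damage checkpoint, which acts upstream of p53 and p63, were mixed. Of 17 genes, 12 passed the filter. At MII against GV, 2 were higher and 5 lower in the libraries labelled Erk-/-, beside 22.9% and 35.6% of all genes. The median log2 ratio of the 12 was -0.09, and 0.09 with median-of-ratios scaling, where that of all genes was -0.26 and -0.08. In wild type 3 were higher and 4 lower (median -0.24, and 0.15 when scaled), beside 20.6% and 49.6%. The median of all genes there was -0.97, and -0.30 when scaled. At MII, where 31.4% of all genes were higher and 7.43% lower, 5 were higher and none lower in the library labelled Erk-/- (median 0.47). Scaling made this 4 and 2 (median 0.09), beside 2462 higher and 1704 lower over all genes. The median of all genes went from 0.31 to 0.00. At GV, where 18.4% of all genes were higher and 22.9% lower, 4 were higher and 3 lower (median 0.33). Among the 8 that averaged 10 FPKM or more, 2 were higher and 3 lower at GV (median 0.33, where that of all such genes was -0.06). Chek1, the checkpoint kinase gene, had 91.4 FPKM in the library labelled Erk-/- MII, 108 in wild-type MII, 91.9 in Erk-/- GV and 69.6 in wild-type GV. Chek2, the kinase that activates p63 in mouse oocytes, named here after its value was seen, had at most 0.0438 FPKM in any library. Hus1, part of the damage clamp, had 60.6 and 88.7 FPKM in the labelled Erk-/- and wild-type MII libraries, against 8.91 and 33.2 at GV.

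Rad17, which loads that clamp, had 10.6 FPKM in the library labelled Erk-/- MII against 2.42 in wild-type MII, and 6.64 in Erk-/- GV against 7.38 in wild-type GV. Topbp1, the activator of ATR, had 4.57 FPKM in the library labelled Erk-/- MII and was listed at 0 in wild-type MII, with 36.5 in Erk-/- GV and 30.2 in wild-type GV. Mdc1, which binds the damage-marked histone, had 10.3 FPKM in the library labelled Erk-/- MII against 1.68 in wild-type MII, and 11.8 in Erk-/- GV against 25.1 in wild-type GV. H2afx itself had 31.1 and 37.6 FPKM in the labelled Erk-/- and wild-type MII libraries, against 85.4 in Erk-/- GV and 17.1 in wild-type GV.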
